A study of Mus musculus with 6 samples.

Results

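The microRNAs mmu-miR-7a-5p, mmu-miR-9-5p and mmu-miR-375-3p, which are best known from neurons and endocrine cells, were examined in extracellular vesicles (EVs) released by mouse hepatocytes. They were picked by name, 3 of the 474 miRNAs listed for every library. EVs are membrane-bound particles that cells shed. All of them came from primary hepatocytes of ApoE KO mice, which lack apolipoprotein E and are prone to high plasma cholesterol, so the knockout was common to both groups. In one group (Chow-EV, 3 libraries) the mice had eaten chow, and in the other (HFHC-EV, 3 libraries) the diet named HFHC in the labels. The labels number the libraries of each diet 1 to 3 as biological replicates, without giving the age of the mice, the feeding time or how many mice stood behind a library. P-values over them therefore measure the spread between these libraries.

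miRNAs are short RNAs cut from hairpin precursors. They guide Argonaute proteins to messenger RNAs through the seed, bases 2 to 8 of the mature strand, and the strand from the left or right side of a hairpin is called 5p or 3p. miR-7 is abundant in pancreatic islets, pituitary and hypothalamus and in neurons binds the circular RNA Cdr1as. miR-9 is a miRNA of the nervous system that acts in neural progenitors and represses the neuronal gene silencer REST. miR-375 is among the most abundant miRNAs of islet beta cells, where it restrains insulin secretion in mice, and it is also made by pituitary and gut epithelium. None of them is regarded as a hepatocyte marker.

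The mature sequences, from RefSeq on GRCm38.p6, are shown because the counting of miR-7a-5p and miR-9-5p meets a near-identical and an antisense relative. The seed is in capitals.
miR-7a-5p: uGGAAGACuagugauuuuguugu
miR-7b-5p: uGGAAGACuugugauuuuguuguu
miR-9-5p: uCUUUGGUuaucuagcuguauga
miR-9-3p: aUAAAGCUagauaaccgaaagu
miR-9b-3p: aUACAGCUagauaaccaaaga
miR-7a-5p and miR-7b-5p share their seed and match at 22 of 23 bases, the difference being A10U (counted from the 5′ end, miR-7a-5p first). Of the 405 miRNAs with established names in the tables, 348 matched a RefSeq mature sequence, and among these miR-7b-5p was the 1 other with the miR-7a-5p seed, while none shared that of miR-9-5p. All 21 bases of miR-9b-3p lie within the reverse complement of miR-9-5p, since miR-9b is annotated on the strand opposite to the miR-9 hairpins. Whether the authors' counting used strand is not given in the sources used here, so reads of the miR-9 strands and of their antisense partner cannot be told apart with certainty.

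Mature miR-7a-5p can come from 2 hairpins. Mir7-1 (chr13:58392779-58392886, minus strand) lies in an intron of Hnrnpk, a gene for an RNA-binding protein, and Mir7-2 (chr7:78888277-78888373, plus strand) overlaps no other annotated gene. Mature miR-9-5p can come from 3 hairpins, all on the plus strand. Mir9-1 (chr3:88215598-88215686) lies in an intron of the lincRNA Gm3764, Mir9-2 (chr13:83738814-83738885) in an exon of the lincRNA C130071C03Rik and Mir9-3 (chr7:79505264-79505353) in an intron of its host lincRNA Mir9-3hg. Mir375 (chr1:74900658-74900721, minus strand) overlaps no other annotated gene. The hairpins behind 1 mature product cannot be told apart in these data.

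Levels are in RPM, the authors' deposited unit, which scales reads to a common library total. The listed miRNAs made up 0.138% to 0.344% of that total. One read was worth about 0.05 RPM, and 27673 to 65775 miRNA reads stood behind each library. Libraries with the same replicate number resembled each other across the diets. miR-122-5p, the defining miRNA of hepatocytes, stood at 10.6 RPM in Chow-EV replicate 1 and 14.0 in HFHC-EV replicate 1, and between 0.745 and 1.09 in the other 4 libraries. miR-451a, which marks red blood cells, was also highest in the libraries numbered 1, at 101.7 and 135.5 RPM against 1.64 to 9.90 in the others. Reads amplified without molecular identifiers are not independent molecules, so the intervals and floors given here hold counting error and nothing else. A higher level in an EV sample can come from more vesicles of one kind or from more copies in each, which cannot be told apart.

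miR-7a-5p was by far the best detected of the 3 and the only one higher in every HFHC-EV library than in every Chow-EV library on the per-million scale. It stood at 9.11, 8.995 and 10.5 RPM in Chow-EV replicates 1 to 3 and at 15.6, 14.2 and 16.4 RPM in HFHC-EV. The groups did not overlap, and the lowest HFHC-EV library lay above the highest Chow-EV library. The means were 9.54 ± 0.838 and 15.4 ± 1.12 RPM (SD, n = 3 each), a 1.61-fold difference. The values rested on 178, 181 and 203 reads in Chow-EV and on 300, 272 and 313 in HFHC-EV, which ranked miR-7a-5p between 28 and 36 by RPM among the listed miRNAs of a library. Of the 104 miRNAs whose mean reached 1 RPM, 42.3% had all 3 HFHC-EV values above all 3 Chow-EV values, so this separation was common.

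**Figure D1:**
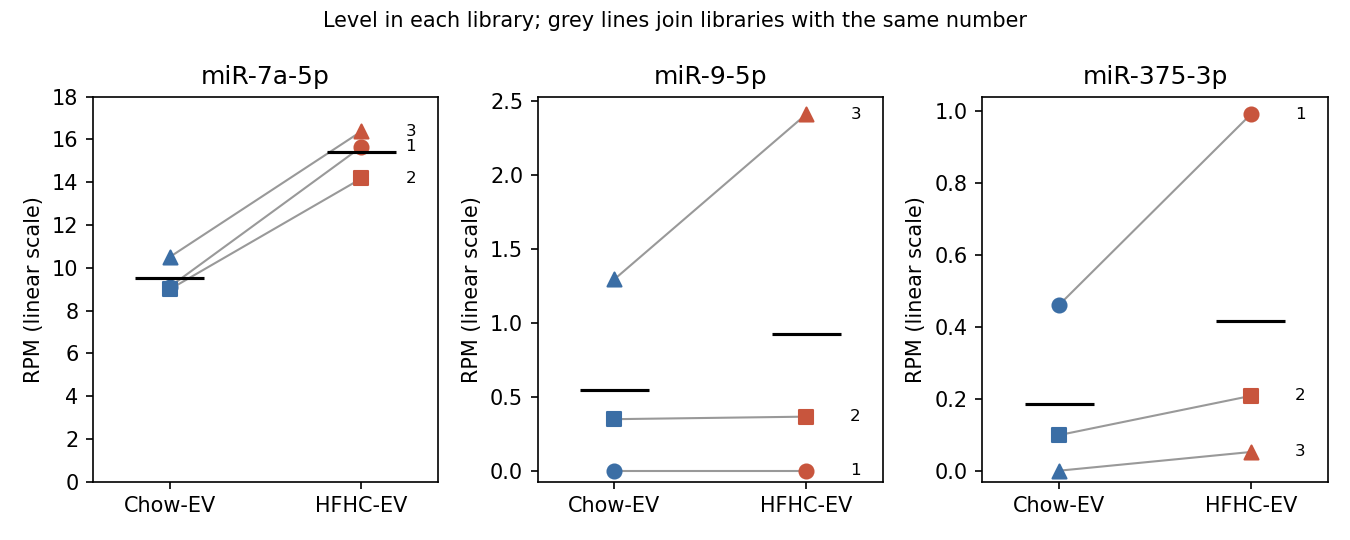
RPM (vertical axes, linear, a different range in each panel) of miR-7a-5p, miR-9-5p and miR-375-3p in the 3 Chow-EV and 3 HFHC-EV libraries; the symbol and the digit give the replicate number, grey lines join equal numbers and black bars are means. miR-7a-5p runs from 8.995 to 10.5 in Chow-EV and from 14.2 to 16.4 in HFHC-EV, whereas miR-9-5p and miR-375-3p spread by replicate number in opposite orders.

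In limma on log2(RPM + 1), miR-7a-5p was higher in HFHC-EV by 0.64 on the log2 scale (SE 0.12, 95% interval 0.33 to 0.95, limma adjusted p = 0.0149 over 104 miRNAs; higher in 3 of 3 pairs of libraries with the same number). With the same direction, 24.0% of the tested miRNAs passed the threshold of 0.05, and the median log2 difference of all tested was 0.51. The replicate number was then added to the model (the replicate block). This could not change the difference, since each number had 1 library of each diet. Its 95% interval was then 0.37 to 0.91 and its limma adjusted p 1.4e-05. That p rests on a variance pooled over miRNAs, and 77 of the 104 tested were called in that fit. The call of the fit with diet alone was lost without Chow-EV replicate 1 (adjusted p = 0.0676), without Chow-EV replicate 2 (0.0826) and without HFHC-EV replicate 1 (0.0764).

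As a part of the miRNA pool, miR-7a-5p differed little between the diets. Of all miRNA reads it made up 0.595%, 0.654% and 0.505% in Chow-EV and 0.650%, 0.644% and 0.476% in HFHC-EV, with the lowest share of each diet in replicate 3. The mean shares were 0.585 ± 0.0752% and 0.590 ± 0.0989% (n = 3 each; 2-sided exact permutation p = 1, smallest possible 0.1). Within pairs of libraries with the same number, the share in HFHC-EV was 1.09 times that in Chow-EV for number 1 (exact 95% interval 0.905 to 1.32), 0.984 times for number 2 (0.813 to 1.19) and 0.943 times for number 3 (0.788 to 1.13). These ratios compare the 2 libraries of a pair, not the diets. After TMM scaling, which aligns the bulk of miRNAs between libraries, the log2 difference was 0.039 (95% interval −0.44 to 0.52, limma adjusted p = 0.972). On that scale 6.73% of the tested miRNAs passed the threshold in either direction, and the median log2 difference was 0.066. All listed miRNAs together summed to between 1375 and 2081 RPM in Chow-EV and between 2202 and 3441 RPM in HFHC-EV.

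**Figure D2:**
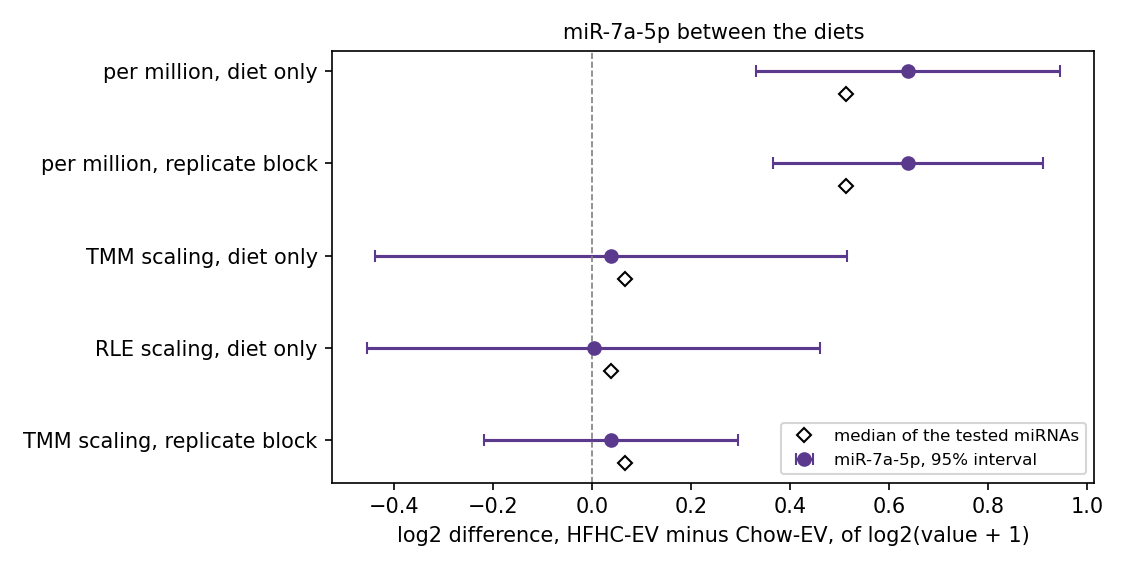
Log2 difference of miR-7a-5p, HFHC-EV minus Chow-EV (horizontal axis, on log2(value + 1)), with 95% intervals from limma under 5 combinations of scaling and model; open diamonds are the median of the 104 tested miRNAs. On the per-million scale the estimate is 0.64 beside a median of 0.51, and after TMM scaling it is 0.039 beside 0.066.

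In RPM, miR-7a-5p varied little between libraries of a diet, but its share of miRNA reads varied more. Its RPM spanned a 1.17-fold range in Chow-EV and a 1.16-fold range in HFHC-EV. The chi-square of its reads against equal RPM was 1.44 per degree of freedom in Chow-EV and 1.57 in HFHC-EV, where 1 is counting error alone. The medians over the tested miRNAs were 16.1 and 14.4. In each diet 27 miRNAs, miR-7a-5p itself counted, had a value as low as or lower than that of miR-7a-5p. Against an equal share of miRNA reads, the chi-square of miR-7a-5p was 3.34 per degree of freedom in Chow-EV and 9.66 in HFHC-EV. The medians on that scale were 11.3 and 10.6. With miR-7a-5p itself counted, 26 of 104 miRNAs in Chow-EV and 51 of 103 in HFHC-EV were at or below it. It was thus near the middle in HFHC-EV. In limma's F test for the replicate number, with diet in the model, its adjusted p was 0.626, whereas 58.7% of the 104 tested miRNAs passed. This fit had 2 residual and 208 total degrees of freedom, so its p rests on a variance pooled over miRNAs.

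The other products of the miR-7 hairpins were at the edge of detection. The 3p strand miR-7a-1-3p had 6 reads over all 6 libraries against 1447 of miR-7a-5p, a ratio of 0.00415 (exact 95% interval 0.00152 to 0.00905). miR-7b-5p, the paralog with the same seed, had 1 read, in HFHC-EV replicate 3. Of 8 other arms and paralogs looked for, 4 were analysed here, these 2 and the miR-9 relatives described below.

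The 5 miRNAs whose RPM followed miR-7a-5p most closely over the 6 libraries were picked by Pearson's r on log2(RPM + 1) among 94 candidates. All 5 were higher in every HFHC-EV than in every Chow-EV library. This largely follows from picking them for likeness over these same libraries. Of the 104 tested miRNAs, 42.3% were separated in this way. As a description over libraries that share diet and number, r was 0.990 for miR-423-3p, 0.988 for let-7g-5p, 0.986 for miR-328-5p, 0.984 for let-7d-5p and 0.977 for miR-26b-5p. let-7g-5p, a member of the differentiation-linked let-7 family, went from 40.8, 41.1 and 46.6 RPM in Chow-EV to 57.5, 58.1 and 64.0 in HFHC-EV. miR-423-3p went from 14.6, 13.8 and 17.1 to 40.3, 37.0 and 40.3 RPM.

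miR-9-5p had the same order by replicate number in both diets, and it was not called between the diets. It had no read in either library numbered 1, 0.348 RPM in Chow-EV replicate 2 and 0.365 in HFHC-EV replicate 2 (7 reads each), and 1.29 RPM in Chow-EV replicate 3 and 2.41 in HFHC-EV replicate 3 (25 and 46 reads). The libraries numbered 3 were the highest of both diets and those numbered 1 the lowest, and the diets overlapped fully. The 0 of 29914 and 0 of 46122 miRNA reads in the libraries numbered 1 allow shares of up to 0.0100% and 0.00650% with 3 reads as the limit, and the exact 2-sided 95% intervals end at 0.0123% and 0.00800%. Replicate 3 of Chow-EV held 0.0622% (exact 95% interval 0.0402 to 0.0917), and that of HFHC-EV held 0.0699% (0.0512 to 0.0933). Over both diets, the RPM of the libraries numbered 3 was at least 23.8-fold higher than in those numbered 1, with 3 reads over both libraries as the floor.

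With a mean under 1 RPM, miR-9-5p was tested in the fit to all 422 miRNAs with a read. The F test for the replicate number gave a limma adjusted p of 0.0403, where 26.1% of those miRNAs passed. The p was 0.00635 after TMM scaling and 6.5e-09 in edgeR's quasi-likelihood test on recovered whole reads. Leaving out 1 library at a time left 1 residual degree of freedom, and the call was lost without Chow-EV replicate 1 (adjusted p = 0.171), Chow-EV replicate 2 (0.151), HFHC-EV replicate 1 (0.208) or HFHC-EV replicate 2 (0.164). Between the diets, the means were 0.547 ± 0.669 RPM for Chow-EV and 0.924 ± 1.30 RPM for HFHC-EV (n = 3 each), and the log2 difference of 0.20 lay within the spread (95% interval −1.12 to 1.51, limma adjusted p = 0.897). In that fit 19.4% of miRNAs passed in either direction. The replicate block could not change the difference, since each number had 1 library of each diet. With it, the 95% interval of the difference was −0.28 to 0.67 and the limma adjusted p 0.419. Within the pair numbered 3, the HFHC-EV library held 1.86 times the RPM of the Chow-EV library (exact 95% interval 1.12 to 3.16), and 1.13 times its share of miRNA reads (0.677 to 1.91).

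**Figure D3:**
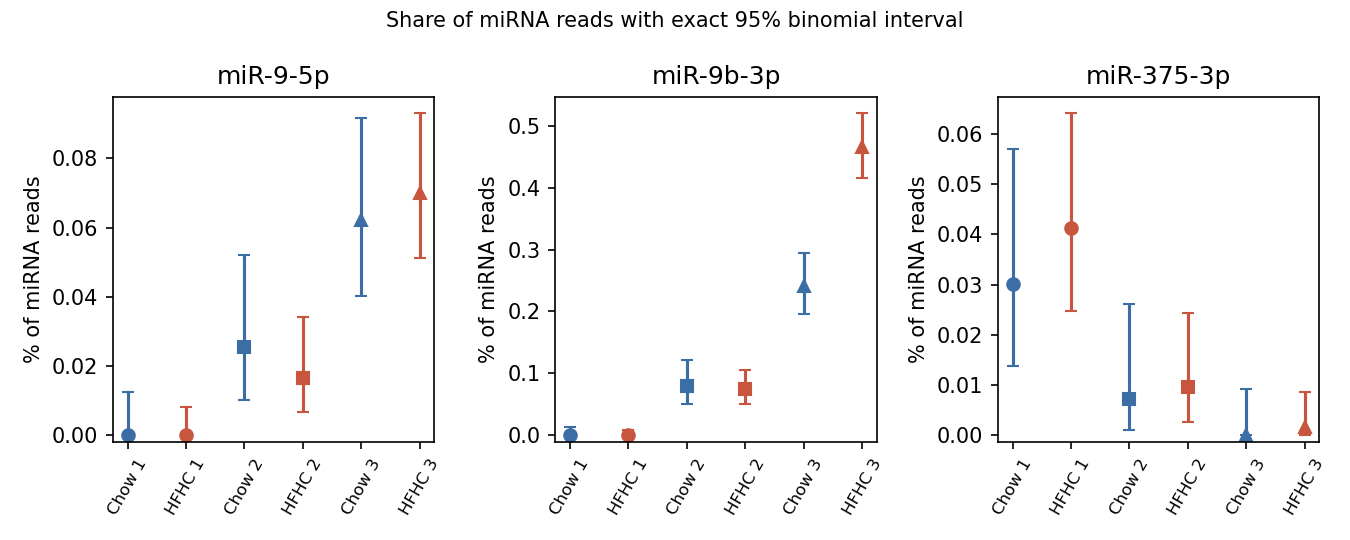
Share of miRNA reads in percent (vertical axes, linear, a different range in each panel) of miR-9-5p, its antisense partner miR-9b-3p and miR-375-3p in each library, ordered by replicate number, with exact 95% binomial intervals. miR-9-5p and miR-9b-3p are at 0 in the libraries numbered 1 and highest in those numbered 3, while miR-375-3p is highest in those numbered 1.

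The antisense partner miR-9b-3p had the same order and more reads than miR-9-5p. It had no read in the libraries numbered 1, 1.09 and 1.62 RPM in Chow-EV and HFHC-EV replicate 2, and 5.02 and 16.1 RPM in Chow-EV and HFHC-EV replicate 3. In sum it had 457 reads against 85 of miR-9-5p, a ratio of 5.38 (exact 95% interval 4.26 to 6.86). The ratio was 3.14 (1.30 to 8.71) in Chow-EV replicate 2, 3.88 (2.48 to 6.29) in Chow-EV replicate 3, 4.43 (1.91 to 11.9) in HFHC-EV replicate 2 and 6.67 (4.88 to 9.31) in HFHC-EV replicate 3. These intervals overlap between all 4 libraries, but whether the ratio differed between them was not tested. Within the pair numbered 3, the HFHC-EV library held 3.20 times the miR-9b-3p RPM of the Chow-EV library (exact 95% interval 2.54 to 4.06). Its share of miRNA reads was 1.94 times as high (1.54 to 2.46), where that of miR-9-5p was 1.13 times (0.677 to 1.91). For number 2 the share of miR-9b-3p was 0.923 times that in Chow-EV (0.517 to 1.67). miR-9b-3p was among the 104 tested miRNAs and did not pass between the diets there (log2 difference 0.61, 95% interval −2.57 to 3.79, limma adjusted p = 0.810). With the replicate block its adjusted p was 4.9e-04 in that fit, 0.388 in the fit to all miRNAs with a read and 0.239 with TMM scaling and the block. The sense 3p strand, miR-9-3p, had 1 read in Chow-EV replicate 3, 5 in HFHC-EV replicate 3 and none in the other libraries.

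The 5 miRNAs most like miR-9-5p over the 6 libraries, among 95 candidates, were miR-9b-3p (r = 0.995), miR-28a-5p (0.985), miR-351-5p (0.977), miR-449a-5p (0.965) and miR-129-5p (0.959). miR-449a-5p, a miRNA of multiciliated cells, had no read in the libraries numbered 1, 0.199 and 0.365 RPM in Chow-EV and HFHC-EV replicate 2 and 4.86 and 5.91 RPM in replicate 3. miR-129-5p, a brain-enriched miRNA, had reads only in the libraries numbered 3, 5.43 RPM under Chow-EV and 13.9 under HFHC-EV.

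**Figure D4:**
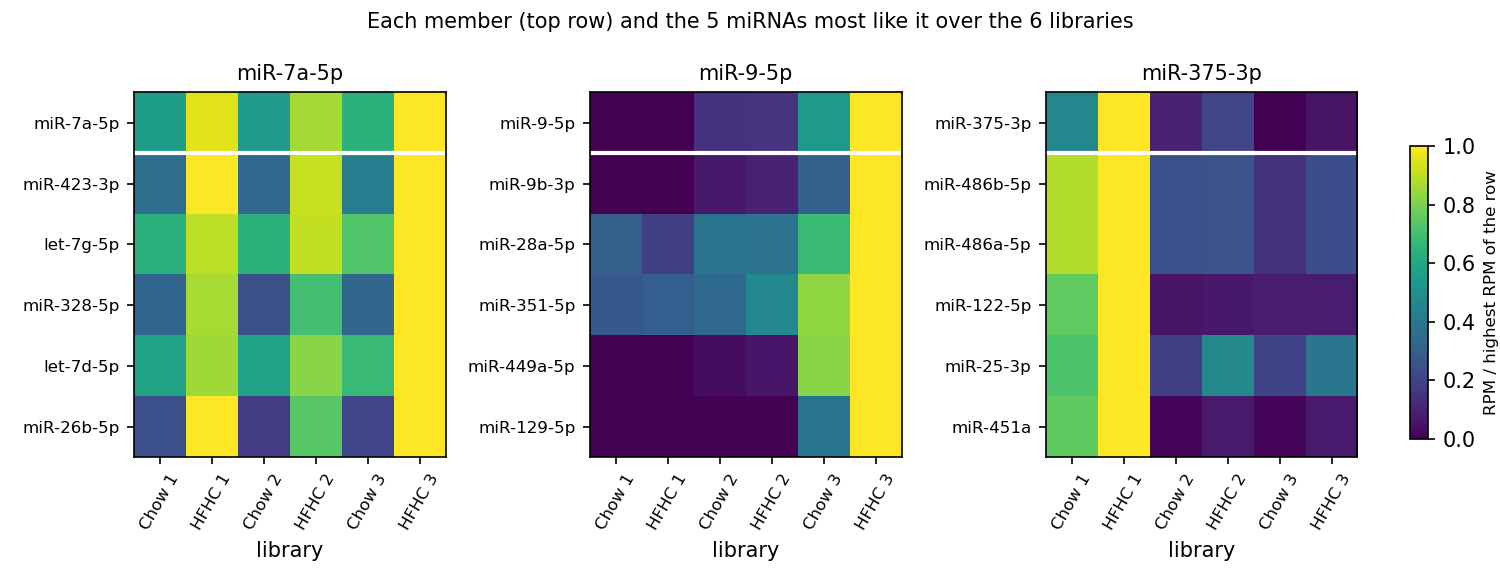
RPM of each of the 3 miRNAs (top row of each panel) and of the 5 most like it, in each library (columns, ordered by replicate number), divided by the highest RPM of the row (colour, 0 to 1). The neighbours were picked for likeness over these same libraries, so they repeat the pattern of their member. miR-7a-5p and its neighbours step with diet. Those of miR-9-5p are brightest in the libraries numbered 3 and those of miR-375-3p in the libraries numbered 1.

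Other miRNAs of neurons and of endocrine tissue were read from lists chosen with earlier results of these data known. Counts of list members that passed are therefore descriptions and no test of a list. Of 12 neuronal miRNAs, 6 were analysed here and all 6 had reads. Their summed level was 0.795 to 1.10 RPM in the 4 libraries numbered 1 or 2 and 10.9 and 23.3 RPM in Chow-EV and HFHC-EV replicate 3. Besides miR-129-5p this was mostly miR-218-5p, a miRNA of motor neurons, at 3.98 and 7.38 RPM in the libraries numbered 3 and at most 0.104 in the others. The list member miR-128-3p had no such rise. It stood at 1.02, 0.348 and 0.621 RPM in Chow-EV replicates 1 to 3 and at 0.782, 0.313 and 0.889 in HFHC-EV. In the libraries numbered 1 it was most of the sum. In limma's F test for the number, 4 of the 6 passed, against 26.1% of all 422 miRNAs with a read. Among the 4, miR-129-5p, miR-218-5p and miR-153-3p were highest in the libraries numbered 3, whereas miR-124-3p had reads only in those numbered 2. Between the diets, neither of the 2 tested members passed (28.8% of the 104 tested miRNAs passed in either direction), with a median log2 difference of 0.35 against 0.51 for all tested.

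Of 8 miRNAs of islet and endocrine tissue, 6 were analysed here and had reads. Their sum was 1.56 to 4.35 RPM in the libraries numbered 1 or 2 and 33.8 and 100.2 RPM in Chow-EV and HFHC-EV replicate 3. In the libraries numbered 3 nearly all of it was miR-204-5p, which is found in islets and also in retinal pigment epithelium, choroid plexus and kidney. That miRNA stood at 30.9 and 98.0 RPM in Chow-EV and HFHC-EV replicate 3 and between 0.052 and 0.768 in the other 4 libraries. In the other 4 libraries most of the sum was miR-127-3p, from the imprinted Dlk1-Dio3 locus, which averaged 2.95 ± 0.563 RPM for Chow-EV and 1.72 ± 0.541 RPM for HFHC-EV (n = 3 each; limma adjusted p = 0.107). Neither of the 2 tested members passed between the diets (median log2 difference −0.17, against 28.8% called and a median of 0.51 over all tested). In the F test for the number 3 of 6 passed, against 26.1% of all miRNAs with a read, again as a description of a list chosen with earlier results known. Whether these miRNAs and miR-9-5p share a source was not tested.

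miR-375-3p was the least abundant of the 3 and had the opposite order by replicate number. It stood at 0.461, 0.099 and 0 RPM in Chow-EV replicates 1 to 3 and at 0.991, 0.208 and 0.052 in HFHC-EV, from 9, 2 and 0 reads and 19, 4 and 1 reads. The libraries numbered 1 were the highest of both diets and those numbered 3 the lowest, and the diets overlapped. Over both diets the libraries numbered 1 held 28 reads and those numbered 3 held 1, a ratio of 27.8 in RPM with an exact 95% interval of 4.60 to 1137. It made up 0.0301% of the miRNA reads of Chow-EV replicate 1 (exact 95% interval 0.0138 to 0.0571) and 0.0412% of those of HFHC-EV replicate 1 (0.0248 to 0.0643). It made up at most 0.00947% in the other 4 libraries.

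The F test for the number gave a limma adjusted p of 0.0591 for miR-375-3p, which missed the threshold. It was 0.0135 after TMM scaling, 0.0190 with a pseudocount of 0.1 and 0.00350 in edgeR on recovered reads. With a pseudocount of 10 it stayed above the threshold, at 0.104. Leaving out any 1 library did not bring a call either, in fits with 1 residual degree of freedom. Between the diets, miR-375-3p was higher in HFHC-EV in 3 of 3 pairs with the same number. The means were 0.187 ± 0.243 RPM for Chow-EV and 0.417 ± 0.503 RPM for HFHC-EV (n = 3 each), and the log2 difference was 0.22 (95% interval −0.48 to 0.91, limma adjusted p = 0.709). With the replicate block the interval was −0.092 to 0.53 and the adjusted p 0.277. For number 1 the HFHC-EV library held 2.15 times the RPM of the Chow-EV library (exact 95% interval 0.927 to 5.40), and for number 2 it held 2.10 times (0.301 to 23.2). All of these values rest on 35 reads, and within HFHC-EV the reads ran from 1 to 19.

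The miRNAs most like miR-375-3p over the 6 libraries included those of red blood cells and liver. miR-486a-5p and miR-486b-5p, erythroid miRNAs listed with the same values, had r = 0.935 each, followed by miR-122-5p (0.914), miR-25-3p (0.901) and miR-451a (0.897), among 95 candidates. miR-486a-5p stood at 5.58 and 6.31 RPM in Chow-EV and HFHC-EV replicate 1 and between 0.931 and 1.62 in the other 4 libraries.

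Lists of other cell types put the order of miR-375-3p beside what else was high in the libraries numbered 1. The 3 erythroid miRNAs summed to 107 and 142 RPM in Chow-EV and HFHC-EV replicate 1 and to between 2.69 and 11.5 elsewhere. Of 6 haematopoietic miRNAs, 5 were analysed here, and they summed to 22.5 and 24.9 RPM in the libraries numbered 1 and to between 7.06 and 11.4 elsewhere. The most abundant was miR-146a-5p, an inhibitor of inflammatory signalling, with means of 7.89 ± 5.81 RPM (Chow-EV) and 11.4 ± 6.63 RPM (HFHC-EV), and it was highest in the libraries numbered 1. miR-150-5p of lymphocytes had means of 1.98 ± 0.894 and 1.06 ± 1.11 RPM (n = 3 each). miR-155-5p, a miRNA of activated immune cells, went the other way and was highest in the libraries numbered 3, at 2.64 RPM in Chow-EV replicate 3 and 1.31 in HFHC-EV replicate 3. Of the 6 hepatocyte miRNAs, 5 were analysed here. They summed to 17.0 and 27.3 RPM in Chow-EV and HFHC-EV replicate 1, to 5.62 and 5.54 in Chow-EV replicates 2 and 3 and to 13.5 and 14.6 in those of HFHC-EV. The difference between the latter was mainly miR-192-5p, which rose from 4.75 ± 0.902 to 12.6 ± 0.374 RPM (n = 3 each, limma adjusted p = 0.0038). By number miR-192-5p varied little, from 4.14 to 5.79 RPM in Chow-EV and from 12.35 to 13.03 in HFHC-EV. The higher sums in the libraries numbered 1 were mainly miR-122-5p, at 10.55 and 13.98 RPM there and 0.745 to 1.09 elsewhere. On this per-million scale 25 of the 104 tested miRNAs were called higher in HFHC-EV, and after TMM scaling 1 was.

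Both endothelial miRNAs were analysed here, and their sum was 5.94 and 9.49 RPM in the libraries numbered 1 and 0.497 to 4.34 elsewhere. It was nearly all miR-126a-3p, with miR-126a-5p at most at 0.205 RPM. Of 5 mesenchymal miRNAs, 4 were analysed here and summed to 0.103 to 1.84 RPM in Chow-EV and 1.77 to 3.86 in HFHC-EV. Most of it was miR-143-3p except in Chow-EV replicate 3, where that miRNA had no read and the sum was miR-199a-3p alone, and miR-145a-5p reached at most 0.417 RPM. The erythroid list was led by miR-451a and miR-486a-5p, and miR-144-3p, made from the same precursor transcript as miR-451a, had 2 reads in all. Of the tested members, 0 of 2 erythroid, 0 of 4 haematopoietic, 0 of 1 endothelial and 0 of 1 mesenchymal miRNAs passed between the diets in limma, and 1 of 2 hepatocyte miRNAs did, against 28.8% of all 104 tested in either direction. In the F test for the number, 2 of 3 erythroid, 2 of 5 haematopoietic and 1 of 5 hepatocyte miRNAs passed. So did 1 of 2 endothelial and 1 of 4 mesenchymal miRNAs, against 26.1% of all 422 miRNAs with a read. These counts again describe lists chosen with earlier results known. The part of these cell types in the order of miR-375-3p was not tested.

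Epithelial miRNAs, which include the neighbours of miR-375-3p in gut and endocrine epithelium, had no such spread by number in their sum. Of 10, 7 were analysed here, and their sum stayed between 24.0 and 34.8 RPM in all 6 libraries. The sum was 24.0 to 26.1 RPM in Chow-EV and 32.4 to 34.8 in HFHC-EV. Of the 3 tested, miR-183-5p, of the sensory miR-183 cluster, rose from 4.26 ± 0.484 to 10.9 ± 0.717 RPM (n = 3 each, limma adjusted p = 0.0036), and the other 2 did not pass. As for miR-192-5p, this call is on the per-million scale, where 25 of 104 miRNAs were called higher, against 1 after TMM scaling. The defining epithelial miR-200c-3p and miR-141-3p had 1 and 6 reads in all, and none of the 7 passed in the F test for the number. Most of the sum was miR-182-5p, miR-183-5p and miR-96-5p. miR-429-3p, of the miR-200 family, had the order of miR-375-3p, with 1.74, 0.497 and 0.103 RPM in Chow-EV replicates 1 to 3 and 0.991, 0.313 and 0.262 RPM in HFHC-EV replicates 1 to 3 (limma adjusted p for the number = 0.0819).

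**Figure D5:**
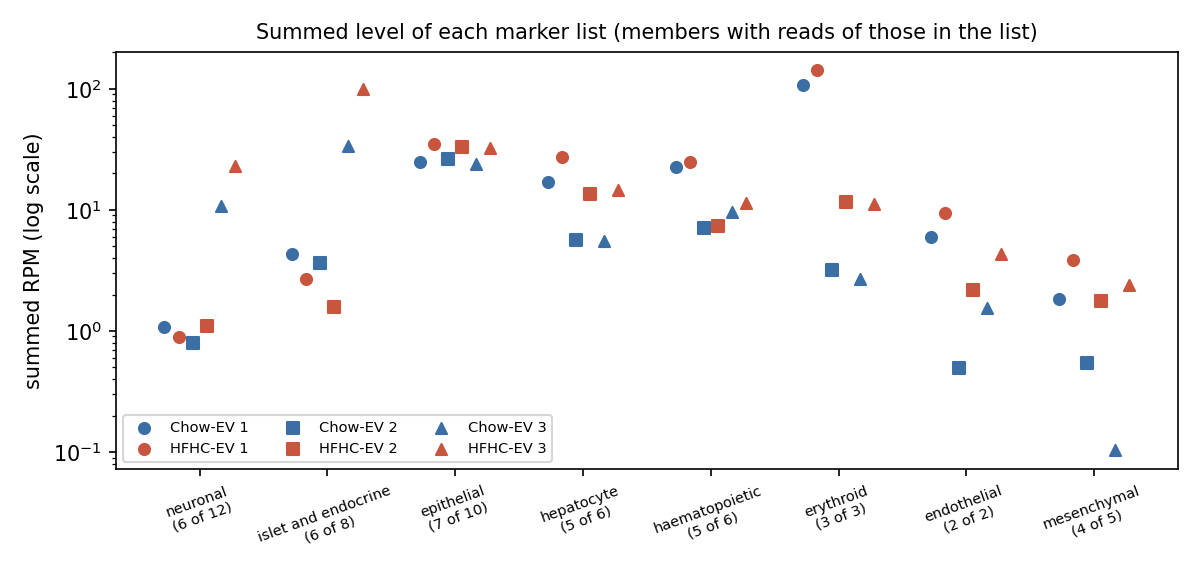
Summed RPM (vertical axis, log scale) of each list of tissue or cell-type miRNAs in each library; colours give the diet and symbols the replicate number, and the labels give how many members had reads of how many in the list. The neuronal and the islet and endocrine sums are highest in the libraries numbered 3 (10.9 and 23.3, and 33.8 and 100.2 RPM), and the erythroid sum in those numbered 1 (107 and 142 RPM).

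The orders of miR-9-5p and miR-375-3p by number were not equally common. Of the 110 miRNAs that passed the F test for the number in the fit to all miRNAs with a read, 46 (41.8%) had the order of miR-9-5p, highest in number 3 and lowest in number 1, and 4 (3.64%) had that of miR-375-3p, which itself did not pass. After TMM scaling 105 passed, 38 (36.2%) with the first order and 13 (12.4%) with the second. The libraries numbered 3 also had the most miRNA reads of each diet, 40223 and 65775. Those numbered 1 had 29914 and 46122, and those numbered 2 had 27673 and 42250. The library totals behind RPM were nearly equal and lowest in number 3 of each diet. These totals were 19532877, 20122487 and 19330395 reads in Chow-EV replicates 1 to 3. In HFHC-EV replicates 1 to 3 they were 19170714, 19190876 and 19114748 reads. The part of the number of miRNA reads in either order was not tested.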

How the data were processed

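Small RNA was sequenced from 6 EV libraries, 3 per diet. Per the labels' protocols, adapter-ligated small RNA was copied to cDNA, PCR-amplified and size-selected on gels. Bowtie2 and GRCm38.p6 are named in the submitters' processing notes. Their miRNA annotation, trimming and handling of reads with several matches were not given in the sources used here. The authors deposited RPM values for 474 miRNAs, 69 under provisional names. Low values (up to 5 RPM) were whole multiples of 1 step in each library (100% within 0.1 of a read), as were 100% of all values, so reads were recovered by division. One RPM stands for about 19.4 reads.

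The main test was limma (3.58.1, trend) on log2(RPM + 1) over the 104 miRNAs whose mean reached 1 RPM. Diet was the sole term, with Benjamini-Hochberg adjustment over all tested; a member below that was read from the fit to the 422 miRNAs with a read. Fold changes on this scale understate those of low miRNAs. An F test of the replicate number used diet plus number. TMM and RLE factors came from the 104 miRNAs. Alternatives used edgeR (4.0.16) and DESeq2 (1.42.0) on recovered reads in R 4.3.3, other pseudocounts, no filter, the replicate block and leaving out libraries. Permutation tests used scipy 1.17.1, and binomial intervals are exact (95%). Scripts were tested on simulated data.

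The labels do not tie replicate numbers to a shared mouse or day. Over the 104 miRNAs, deviations from the diet means had r = 0.945, 0.894 and 0.946 in same-numbered pairs and −0.819 to 0.0265 in other pairs, so the numbers were taken to pair the samples. The main test left this pairing out, and the replicate block held it. The members and lists were chosen with earlier results of these data known. The miRNAs named are the 3 members, their other arms and paralogs, the 5 most alike of each by Pearson's r (mean of at least 1 RPM, provisional names left out), and, from each list, up to 4 called members or else the 2 most abundant; miR-122-5p, miR-141-3p, miR-144-3p and miR-200c-3p were named as defining markers, and miR-96-5p, miR-124-3p, miR-153-3p, miR-155-5p, miR-182-5p, miR-199a-3p and miR-429-3p as exceptions or main parts of a list, after their values were seen. In the same way, miR-128-3p was named as an exception in its list after its values were seen. Hairpins and overlapping genes are from GENCODE M21 (GRCm38).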

Additional observations from a re-analysis of the deposited data

How the results depend on the processing

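The 30 calls between the diets among 104 miRNAs became 7 with TMM scaling, 8 with RLE scaling, 6 in edgeR and 19 in DESeq2. They became 77 with the replicate block and 51 with the block and TMM scaling. Without a filter there were 82 calls among 422 miRNAs, or 19.4% against 28.8% with it. Leaving out 1 library gave 17 to 37, the former when Chow-EV replicate 2 was left out, with 19 when HFHC-EV replicate 1 or 2 was. Leaving out both libraries numbered 1, or both numbered 2, chosen after seeing the data, gave 0 limma calls (26 and 22 at an unadjusted p under 0.05; no other tool was run on these); leaving out both numbered 3 gave 44 and kept the call of miR-7a-5p (0.66, limma adjusted p = 0.0149). The 61 calls between replicate numbers (58.7% of 104 miRNAs) became 110 without a filter (26.1% of 422).

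The log2 difference of miR-7a-5p lost its call with TMM scaling (0.039, also with the block), RLE scaling (0.0036), edgeR (0.044, and 0.042 with the replicate block) and DESeq2 (0.0066), and without both libraries numbered 1 (0.60) or 2 (0.66). Leaving out 1 library gave 0.60 to 0.70. Over all alternatives its adjusted p ranged from 1.4e-05 to 0.999. miR-9-5p turned from 0.20 to −0.014 with TMM scaling (with and without the block), −0.027 with RLE scaling and −0.095 in edgeR with the block, and ranged from −0.32 (without HFHC-EV replicate 3) to 0.57 leaving out 1 library. Its log2 ratio of mean shares, −0.016, was 0.76 on the per-million scale. miR-375-3p turned from 0.22 to −0.055 without HFHC-EV replicate 1 and reached 0.41 without HFHC-EV replicate 3. Neither was called between the diets under any alternative. For the replicate number, miR-9-5p lost its call with a pseudocount of 10 (adjusted p = 0.0737). The block changed no other call of the 3 members. The causes were not tested. With 35 to 1447 reads per member, counting error is largest for miR-375-3p.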

Other observations

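miR-124-3p, the most neuron-specific miRNA of the neuronal list and named here after its values were seen, followed neither miR-9-5p nor miR-375-3p. It stood at 0.447 RPM in Chow-EV replicate 2 and 0.782 RPM in HFHC-EV replicate 2 and had no read in the other 4 libraries. It had 24 reads in all, and in limma's F test for the replicate number its adjusted p was 0.0444 in the fit to all 422 miRNAs with a read.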
